A study of Rattus norvegicus with 23 samples.

Results

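The genes described here, Pla2g7, Gpnmb, Trem2, Apoc1, Apoe, Lpl, Fabp4, Fabp5, Lgals3 and Acod1, are 10 of 32552 genes in the count files and were matched by symbol and identifier in both organs. They form a group of lipid-handling macrophage genes. They were chosen by measured values of these same libraries, but which comparisons were used is not stated, so every comparison in both organs was treated as used. Their values are therefore given as a description, with no test, and counts of them support no statement about the group. Members such as Lpl, Fabp4, Fabp5 and Apoe are also made by cells other than macrophages. Bulk tissue does not show which cells made any of the 10, and the label of the group was set beside cell type markers below.

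Gene expression was measured by poly(A)-selected, strand-specific RNA sequencing in heart and kidney of Sprague-Dawley rats aged 13 weeks, 4 weeks after surgery. Sham rats had sham surgery. NX rats had a 5/6th partial nephrectomy, a model of chronic kidney disease. AVF+NX rats had the same nephrectomy and, in addition, an arteriovenous fistula with the jugular vein joined end-to-side to the carotid artery, the kind of connection that gives access for haemodialysis. None of the groups used here had the fistula alone. AVF+NX against NX therefore gives the fistula added to a nephrectomy. The effect of a fistula by itself cannot be told apart from its action together with the nephrectomy. The 23 libraries were 4 per organ and group, with 3 for heart Sham. The labels number them as biological replicates and do not tie hearts and kidneys to rats.

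Macrophages that take up lipid, from dying cells, lipoproteins or myelin, switch on a shared set of genes. TREM2 is a surface receptor for lipids and apolipoproteins that signals through the adaptor TYROBP. GPNMB is a membrane glycoprotein of lipid-laden macrophages, APOE and APOC1 are apolipoproteins, LPL hydrolyses triglyceride, FABP4 and FABP5 carry fatty acids in the cytosol, PLA2G7 is the secreted hydrolase of platelet-activating factor, and LGALS3 is a lectin of activated macrophages. ACOD1 makes itaconate in mitochondria of inflammatory macrophages. In heart, LPL and FABP4 serve the fatty acid supply of cardiomyocytes and are made by cardiomyocytes and capillary endothelium, respectively.

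The genes lie on chromosomes 1, 2, 4, 9, 15 and 16 by the files' own coordinates, whose genome build is not given in the sources used here. Pla2g7 spans 19935768 to 19978013 of chromosome 9 and Trem2 14611561 to 14618013 of the same chromosome, both on the minus strand. Gpnmb spans 78694447 to 78715683 of chromosome 4. Apoc1 (80606638 to 80609921) and Apoe (80612895 to 80617057) are neighbours on chromosome 1, 2973 bases apart. Fabp4 (93792601 to 93797305) and Fabp5 (93981656 to 93985378) lie 184350 bases apart on chromosome 2. Lpl spans 22537056 to 22561496 of chromosome 16, Lgals3 24141651 to 24165537 and Acod1 93612971 to 93622358 of chromosome 15. Counts cover exons of the whole gene, so exon, intron and UTR are not separated. Acod1 overlaps Mycbp2 on the opposite strand, and the strand setting of the counting is not given, so its counts are uncertain.

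The sequence before the start of transcription is shown for 4 of these genes because their kidney levels moved together and because each has a single listed start. RefSeq (build GRCr8, not the files' coordinates) listed such windows for 6 of the 10 genes. The 250 bases before the start are Pla2g7 at chr9:24901748-24901997 (minus strand), Gpnmb at chr4:79340878-79341127 (plus strand), Trem2 at chr9:20151780-20152029 (minus strand) and Acod1 at chr15:86286289-86286538 (plus strand). Each is printed 5′ to 3′ on the gene's strand, and capitals mark motif matches.
Pla2g7: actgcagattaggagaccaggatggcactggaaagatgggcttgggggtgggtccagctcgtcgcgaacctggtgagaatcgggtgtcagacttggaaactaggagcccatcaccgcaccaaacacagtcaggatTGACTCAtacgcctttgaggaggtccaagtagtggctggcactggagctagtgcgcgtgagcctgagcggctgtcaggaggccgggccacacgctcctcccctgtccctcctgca
Gpnmb: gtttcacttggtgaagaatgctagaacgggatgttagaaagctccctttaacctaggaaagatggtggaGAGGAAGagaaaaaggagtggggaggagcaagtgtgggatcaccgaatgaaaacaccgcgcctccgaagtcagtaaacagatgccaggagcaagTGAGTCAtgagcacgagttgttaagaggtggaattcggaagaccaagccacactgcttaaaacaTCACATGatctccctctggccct
Trem2: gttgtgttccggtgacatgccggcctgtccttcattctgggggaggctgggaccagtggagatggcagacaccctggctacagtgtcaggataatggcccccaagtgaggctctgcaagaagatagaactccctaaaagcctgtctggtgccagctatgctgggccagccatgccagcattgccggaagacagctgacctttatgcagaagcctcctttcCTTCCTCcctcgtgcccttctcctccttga
Acod1: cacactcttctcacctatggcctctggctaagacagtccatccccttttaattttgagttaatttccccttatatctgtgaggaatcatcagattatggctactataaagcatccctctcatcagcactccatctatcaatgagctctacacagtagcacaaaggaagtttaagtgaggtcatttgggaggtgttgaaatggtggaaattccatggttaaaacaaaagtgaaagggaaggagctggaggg

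Motifs of factors known from macrophages were searched on both strands. The AP-1 motif TGANTCA was found before Pla2g7 and Gpnmb, and 6.34% of all 33469 windows of this length held it. The M-box CATGTGA, read by MITF-family factors, was found before Gpnmb, 23 bases before the start at its first base, and 3.36% of windows held it. The PU.1 motif GAGGAAG was found before Gpnmb and Trem2, and 10.2% of windows held it. The E-box CACGTG (5.59% of windows), the C/EBP motif TTGCNNAA (9.22%) and the STAT motif TTCNNNGAA (7.67%) were found before none of the 6 genes with a window. The Acod1 window held none of these motifs. A match describes letters in a window and is not a binding site.

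Levels are in CPM, counts scaled to library size, after scaling by trimmed mean of M-values within each organ. Library totals ranged from 9069354 to 18782085 counts in kidney. In heart they ranged from 9894716 to 11866042 in Sham, 9605973 to 22679092 in NX and 11889483 to 48079431 in AVF+NX, so depth differed between heart groups. Heart markers summed to at least 43707 CPM in heart and at most 4.62 CPM in kidney, and kidney markers were at least 8740 CPM in kidney and at most 0.866 CPM in heart, as labelled. A gene is called where edgeR's quasi-likelihood test gave a Benjamini-Hochberg adjusted p under 0.05 over all genes tested.

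Outside Apoe and Lpl, the 10 genes were at most 17.4 CPM in any Sham kidney, and 9 of the 10 had their highest mean in AVF+NX (plot of the level in every library). In AVF+NX against Sham, 9 of 10 were called higher and none lower, beside 15.9% of all 14322 genes called higher and 9.18% lower. In NX against Sham 4 of 10 were called higher, beside 0.859% of genes called higher. In AVF+NX against NX 8 of 10 were called higher, beside 4.87% of genes called higher. A fit of only the AVF+NX and NX kidneys called 4 of the 10. Since the choice of the genes may rest on these contrasts, nothing is read from these shares. The 3 comparisons within an organ share groups, so their values are given side by side. The median log2 fold changes of the 10 genes were 3.25, 1.88 and 1.54 for AVF+NX over Sham, NX over Sham and AVF+NX over NX, beside -0.01, 0.02 and -0.01 over all genes tested. Apoc1 had no count in Sham kidney. With Apoc1 at its lower bound the median for AVF+NX over Sham was again 3.25, and without Apoc1 the median for NX over Sham was 1.70.

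**Figure D1:**
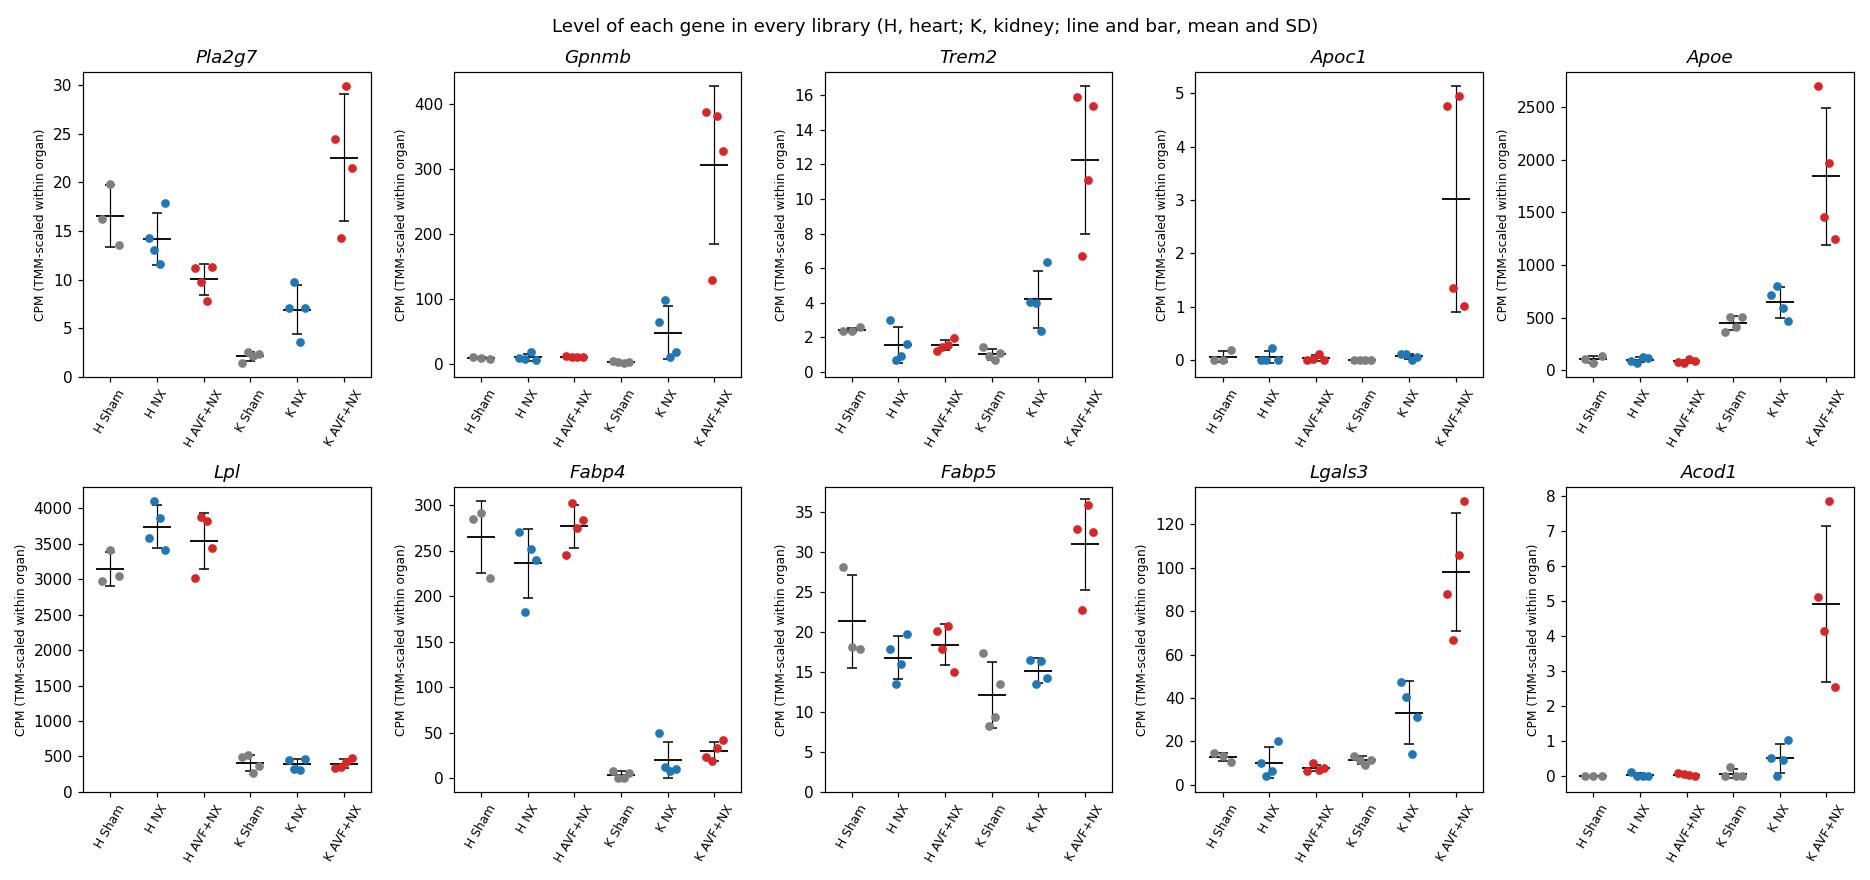
Level of each of the 10 genes in CPM (vertical axis, linear) in every library of the 6 groups; points are libraries, the line is the group mean and the bar 1 SD. Kidney AVF+NX libraries lie above all kidney Sham libraries for every gene but Lpl, and Lpl and Fabp4 are far higher in heart than in kidney.

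Among the members with counts in every kidney library, Gpnmb, the membrane glycoprotein, had the largest fitted change. Kidney Gpnmb was 4.45, 3.04, 2.27 and 3.15 CPM in Sham, 64.3, 98.1, 11.98 and 18.8 CPM in NX and 387, 129, 382 and 328 CPM in AVF+NX. The 3 groups did not overlap. The NX libraries had a coefficient of variation of 83.9%, and AVF+NX library 2 was the lowest of its group. For Gpnmb in kidney, the fitted log2 fold changes were 3.91 ± 0.71 (SE) for NX over Sham, 6.59 ± 0.74 for AVF+NX over Sham and 2.68 ± 0.58 for AVF+NX over NX. The authors' deposited table gave a log2 fold change of 6.57 for AVF+NX over Sham.

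Trem2, the lipid receptor itself, was low throughout. Kidney Trem2 was 1.45, 0.905, 0.699 and 1.08 CPM in Sham, 4.02, 3.98, 2.37 and 6.38 CPM in NX and 15.9, 6.73, 11.1 and 15.4 CPM in AVF+NX. All NX libraries were above all Sham libraries and all AVF+NX libraries above all NX libraries. For Trem2 in kidney, the fitted log2 fold changes were 2.06 ± 0.37 (SE) for NX over Sham, 3.58 ± 0.37 for AVF+NX over Sham and 1.52 ± 0.31 for AVF+NX over NX.

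Pla2g7, which hydrolyses platelet-activating factor and oxidised phospholipids, had the same order. Kidney Pla2g7 was 1.45, 2.55, 2.10 and 2.34 CPM in Sham, 7.11, 9.79, 3.62 and 7.12 CPM in NX and 24.5, 14.3, 29.97 and 21.5 CPM in AVF+NX. No groups overlapped. For Pla2g7 in kidney, the fitted log2 fold changes were 1.70 ± 0.31 (SE) for NX over Sham, 3.40 ± 0.31 for AVF+NX over Sham and 1.70 ± 0.27 for AVF+NX over NX. An unnamed gene that overlaps Pla2g7 on the same strand had 0 counts in all libraries.

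Of the apolipoproteins, Apoe was already abundant in Sham kidney. Kidney Apoe was 366, 503, 415 and 504 CPM in Sham, 712, 801, 595 and 469 CPM in NX and 2701, 1453, 1966 and 1245 CPM in AVF+NX. AVF+NX lay above both other groups without overlap, and NX overlapped Sham in 1 library, NX library 4. For Apoe in kidney, the fitted log2 fold changes were 0.53 ± 0.23 (SE) for NX over Sham, 2.04 ± 0.24 for AVF+NX over Sham and 1.52 ± 0.24 for AVF+NX over NX.

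Its neighbour Apoc1 was at or near 0 outside AVF+NX. Kidney Apoc1 had 0, 0, 0 and 0 counts in Sham, 1, 1, 0 and 1 in NX and 53, 13, 49 and 10 in AVF+NX. AVF+NX libraries 1 and 3 had 4.76 and 4.94 CPM, and libraries 2 and 4 had 1.35 and 1.02 CPM. Against a limit of 3 counts over the Sham group, AVF+NX was at least 44.0-fold higher.

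Lpl, the triglyceride lipase, did not follow the others in kidney. Kidney Lpl was 486, 518, 262 and 366 CPM in Sham, 453, 326, 309 and 465 CPM in NX and 332, 356, 420.0 and 473 CPM in AVF+NX. All 3 groups overlapped. For Lpl in kidney, the fitted log2 fold changes were -0.07 ± 0.21 (SE) for NX over Sham, -0.05 ± 0.21 for AVF+NX over Sham and 0.02 ± 0.21 for AVF+NX over NX. Its pair correlations with the other 9 genes over the 12 kidney libraries ran from -0.10 to 0.23.

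The fatty acid carriers differed from each other. Kidney Fabp5 was 17.4, 8.22, 9.35 and 13.5 CPM in Sham, 16.5, 13.4, 16.4 and 14.3 CPM in NX and 32.8, 22.7, 35.8 and 32.4 CPM in AVF+NX. AVF+NX lay above both other groups, while NX overlapped Sham. For Fabp5 in kidney, the fitted log2 fold changes were 0.33 ± 0.21 (SE) for NX over Sham, 1.36 ± 0.21 for AVF+NX over Sham and 1.03 ± 0.21 for AVF+NX over NX.

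Fabp4 is a carrier of adipocytes and capillary endothelium as well as macrophages. Kidney Fabp4 was 8.46, 1.07, 1.05 and 6.20 CPM in Sham, 50.4, 12.6, 8.14 and 10.9 CPM in NX and 23.8, 19.1, 33.7 and 42.6 CPM in AVF+NX. AVF+NX lay above Sham without overlap, but NX library 1 was above every AVF+NX library. For Fabp4 in kidney, the fitted log2 fold changes were 2.32 ± 0.73 (SE) for NX over Sham, 2.87 ± 0.73 for AVF+NX over Sham and 0.55 ± 0.65 for AVF+NX over NX. In that library the adipocyte genes Adipoq and Plin1 were also at their highest, 49.1 and 24.3 CPM, against at most 23.8 and 19.6 CPM in any other kidney library. The adipocyte markers summed to 27.96 to 55.7 CPM in Sham, 35.9 to 160.2 in NX and 76.7 to 120.3 in AVF+NX kidney (7 of 9 markers matched). Beside 15.9% of all genes, 2 of 6 tested adipocyte markers rose in AVF+NX over Sham. These were Cfd, the complement protease of adipocytes, from 1.65 ± 2.15 to 32.1 ± 11.4 CPM (SD, n = 4 each; log2 fold change 4.25 ± 0.89, adjusted p = 0.00557), and Plin1, a lipid droplet coat protein (log2 fold change 4.01 ± 1.36, adjusted p = 0.0499). Plin1 was 0.0822 to 1.53 CPM in Sham and 4.66 to 19.6 CPM in AVF+NX, whereas Adipoq overlapped between these groups (9.54 to 23.8 and 14.2 to 21.003 CPM). Cidec and Lipe overlapped as well, and in NX against Sham none of the 6 passed, and Cfd had the lowest p (log2 fold change 3.05 ± 0.89, adjusted p = 0.114). The capillary endothelial markers summed to 702 to 737 CPM in Sham and 591 to 691 CPM in AVF+NX kidney (7 of 8 matched). Of these 7 markers 3 were called lower, beside 9.18% of all genes, and 1, Cdh5, higher. The part of either cell type in the Fabp4 values was not tested. Without NX library 1 the fitted change of Fabp4 for NX over Sham was 1.38, from 2.32 with it.

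**Figure D2:**
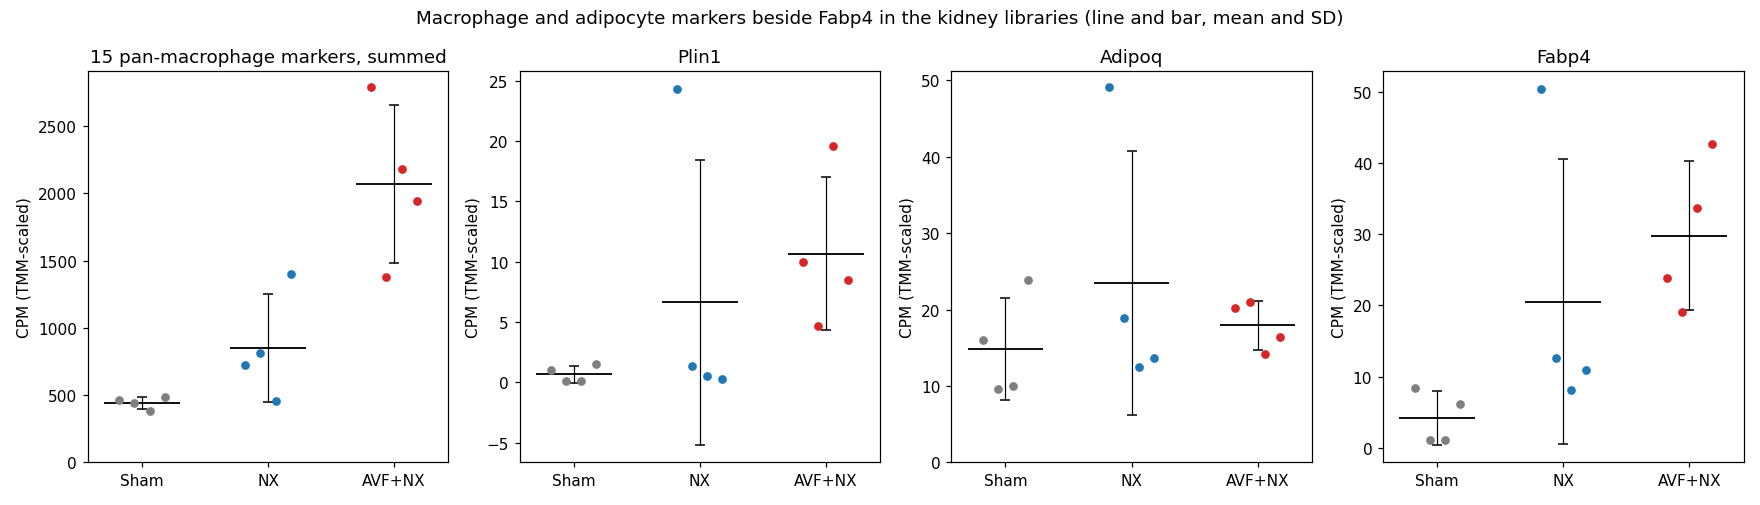
Summed CPM of 15 pan-macrophage markers and CPM of the adipocyte genes Plin1 and Adipoq and of Fabp4 in the 12 kidney libraries; points are libraries, the line is the group mean and the bar 1 SD. NX library 1 is the highest NX library for Plin1, Adipoq and Fabp4 but not for the macrophage sum.

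Lgals3, galectin-3, was graded across the groups. Kidney Lgals3 was 13.5, 11.3, 9.26 and 11.5 CPM in Sham, 47.4, 40.3, 14.01 and 31.3 CPM in NX and 87.8, 66.8, 106 and 131 CPM in AVF+NX. No groups overlapped. For Lgals3 in kidney, the fitted log2 fold changes were 1.55 ± 0.32 (SE) for NX over Sham, 3.11 ± 0.33 for AVF+NX over Sham and 1.56 ± 0.30 for AVF+NX over NX.

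Acod1, the itaconate enzyme, was close to 0 in Sham and NX. Kidney Acod1 had 0, 3, 0 and 0 counts in Sham, 5, 0, 4 and 21 in NX and 57, 40, 78 and 25 in AVF+NX. All AVF+NX libraries were above all others. The fitted log2 fold change for AVF+NX over NX was 3.10 ± 0.61. Mycbp2, on the opposite strand, was 151.7 ± 12.7 CPM in kidney AVF+NX and 125 ± 3.41 CPM in Sham (SD, n = 4 each). In heart AVF+NX, where Mycbp2 was 75.1 ± 8.35 CPM (n = 4), Acod1 had at most 2 counts in a library.

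The NX kidneys varied for most of these genes, and NX library 3 had the lowest mean z-score over the 10 genes of the 4, -0.52 against -0.15 to 0.20. Its macrophage marker sum was also the lowest of the NX libraries, 457 CPM. The 4 calls for NX over Sham, those of Pla2g7, Gpnmb, Trem2 and Lgals3, did not hold up to leaving out libraries. All 4 were lost when any one of NX libraries 1 and 2 or Sham libraries 2, 3 and 4 was dropped. A fit of only these groups called 2 of the 10, as did a fit without a filter on low counts. Only Gpnmb was called when NX library 4 was dropped, and only Trem2 when Sham library 1 was.

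In heart the members did not follow the kidney (plot of the fitted changes). Apoc1 and Acod1 were too low to be tested, with at most 5 and 2 counts in a heart library, so 8 of 10 were tested. In AVF+NX against Sham 1 of 8, Pla2g7, was called, and it was lower, beside 34.1% of all 12794 genes called. In NX against Sham and in AVF+NX against NX 0 of 8 were called by edgeR and 0 by DESeq2, with 1 and 1 at an unadjusted p under 0.05. Over all genes, 0% were called for NX against Sham by edgeR, with 2662 at an unadjusted p under 0.05, and 0.336% for AVF+NX against NX. The medians of the 8 genes were -0.20, -0.24 and -0.03 (log2) for NX over Sham, AVF+NX over Sham and AVF+NX over NX.

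**Figure D3:**
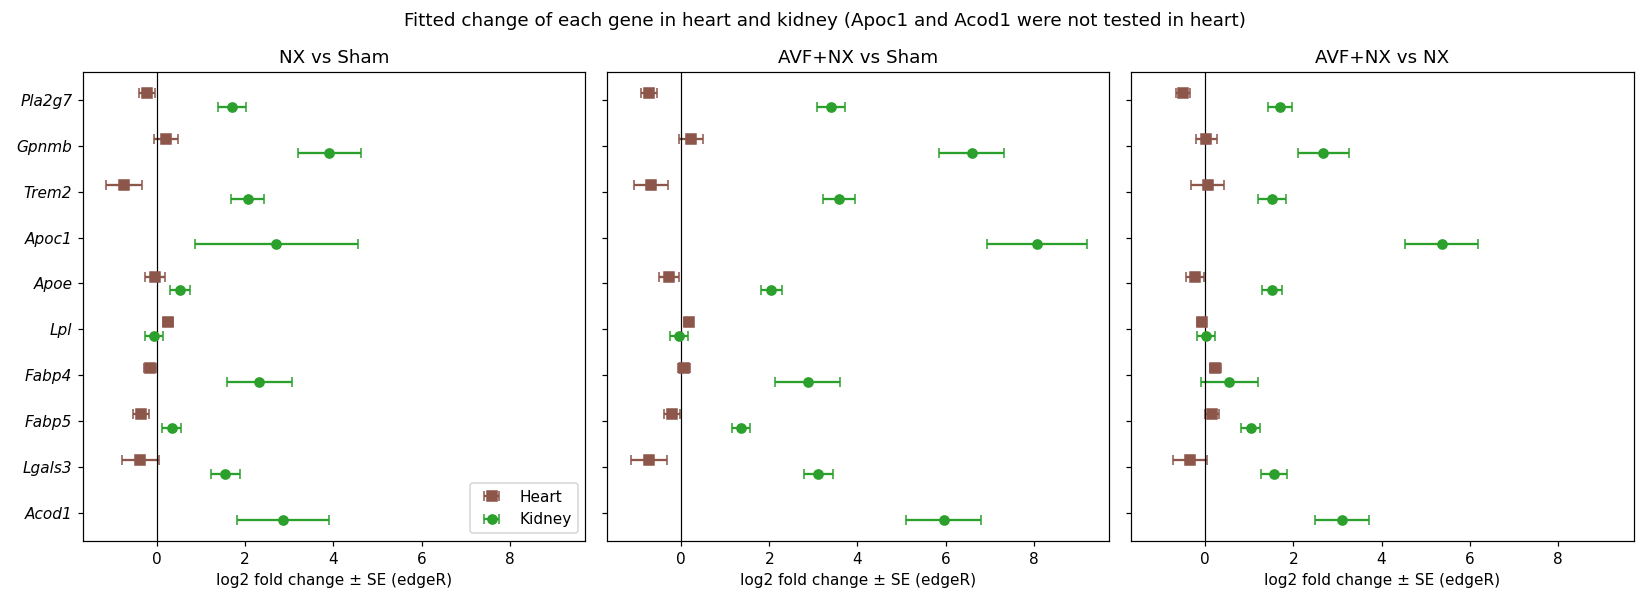
Fitted log2 fold change with its SE (horizontal axis) of each gene in heart (squares) and kidney (circles) for the 3 comparisons. Kidney values lie to the right of the heart values for all tested genes but Lpl in AVF+NX against Sham, where heart Pla2g7, Trem2 and Lgals3 are left of 0. The kidney values of Apoc1 against Sham rest on 0 counts in Sham and are no bound.

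Pla2g7 was lower in AVF+NX hearts than in both other groups. Heart Pla2g7 was 16.2, 19.9 and 13.6 CPM in Sham, 14.3, 13.00, 11.6 and 17.9 CPM in NX and 11.2, 9.77, 7.82 and 11.3 CPM in AVF+NX. The AVF+NX libraries did not overlap Sham or NX. The log2 fold change for AVF+NX over Sham was -0.73 ± 0.18. It was -0.39 with the log2 total count as a covariate, which ended the call, as did leaving out Sham library 2 (-0.57). Depth differed between these groups, as given above, and the part of depth cannot be told apart from that of the group.

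Trem2 and Lgals3 in heart were lower in AVF+NX than in Sham without being called in edgeR's fit of all 3 heart groups. In NX their coefficients of variation were 66.7% and 69.8%. These were 4.74% and 15.6% in Sham and 19.8% and 19.5% in AVF+NX. A fit of only AVF+NX and Sham hearts called more of the members, as given below. The part of the NX spread was not tested. Heart Trem2 was 2.36, 2.38 and 2.57 CPM in Sham, 3.02, 0.691, 0.933 and 1.64 CPM in NX and 1.23, 1.43, 1.56 and 1.96 CPM in AVF+NX. NX overlapped both other groups. Heart Lgals3 was 14.6, 13.04 and 10.6 CPM in Sham, 9.79, 4.23, 6.37 and 20.2 CPM in NX and 6.49, 9.79, 6.79 and 7.58 CPM in AVF+NX. Fitted log2 fold changes for AVF+NX over Sham were -0.68 ± 0.39 for Trem2 and -0.73 ± 0.41 for Lgals3. The authors' deposited table gave the same size for Lgals3, -0.73, with an adjusted p of 0.000764, so Lgals3 passed there and not here, and an adjusted p of 0.0523 for Trem2. With the log2 total count as a covariate that of Trem2 became 0.11.

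Gpnmb, unlike in kidney, overlapped between all heart groups. Heart Gpnmb was 10.9, 9.63 and 8.34 CPM in Sham, 10.1, 8.73, 18.4 and 6.54 CPM in NX and 12.7, 10.7, 10.7 and 11.1 CPM in AVF+NX. NX library 3 was the highest of the hearts. Its log2 fold change was 0.23 ± 0.27 for AVF+NX over Sham.

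The other heart members overlapped between groups. Heart Lpl was 2973 to 3414 CPM in Sham, 3411 to 4104 in NX and 3014 to 3875 in AVF+NX. Heart Fabp4 ranged from 182.9 to 302.4 CPM over the 11 libraries, Apoe from 70.8 to 132.6 CPM and Fabp5 from 13.4 to 28.03 CPM. Their fitted changes for AVF+NX over Sham were 0.17 ± 0.11 (Lpl), 0.06 ± 0.14 (Fabp4), -0.28 ± 0.22 (Apoe) and -0.21 ± 0.18 (Fabp5). The capillary endothelial markers rose in 4 of 7 in AVF+NX hearts, beside 15.4% of all genes. They summed to 946 to 1136 CPM there against 699.7 to 804 CPM in Sham, while heart Fabp4 overlapped between these groups.

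The members' places in the healthy organs differed as well. In TPM (transcripts scaled by length and depth), which account for gene length, Sham heart exceeded Sham kidney 55.6-fold for Fabp4, 6.98-fold for Pla2g7, 6.80-fold for Lpl, 2.63-fold for Gpnmb and 2.08-fold for Trem2, each without overlap. Apoe was 4.86-fold higher in Sham kidney. Fabp5 and Lgals3 overlapped between the organs. In Sham heart the order was Lpl (1302 ± 80.3 TPM), Fabp4 (605 ± 88.3) and Apoe (101.3 ± 30.5, SD, n = 3). In AVF+NX kidney Apoe was highest (2131 ± 847 TPM, n = 4). Gpnmb (238 ± 96.7 TPM), Lpl (191.5 ± 27.5) and Lgals3 (161 ± 43.7) followed, with ranges that overlapped. Within single libraries Lgals3 was below Lpl in all 4 (155 and 173, 109 and 171, 163 and 191, 215 and 231 TPM). Gpnmb was below Lpl only in library 2 (99.1 and 171 TPM). Fabp4 (79.4 ± 26.9) and Fabp5 (76.3 ± 14.2) overlapped as well, and neither was the higher in every library. TPM were scaled per library, without the scaling within each organ used for CPM. They depend on what else each organ expresses and are compared across organs as a description.

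Apart from Lpl, the genes moved together from library to library in kidney. Over all 45 gene pairs, Lpl included, the median correlation of log2 CPM across 12 libraries was 0.84, and 32 pairs were above 0.8. These points share the differences between groups, which may have entered the choice of the genes. In heart the median over 28 pairs was 0.09 across 11 libraries. The genes outside the group whose log2 CPM followed the members' mean z-score most closely in kidney were Ubd (r = 0.988), Foxp3 (0.984), Ccr7 (0.984), Lef1 (0.976) and Cd22 (0.975), over 12 libraries. In heart they were C1qtnf9 (0.956), Ushbp1 (0.896), Pcsk7 (0.895), Coq9 (0.894) and Isyna1 (0.887), over 11 libraries. These were the highest of 12679 genes compared in kidney and 11252 in heart. In heart 13 of the 28 member pairs correlated below 0. The mean z-score there averaged 8 members without a shared pattern, so its closest genes are not tied to the group. Of those in kidney, Foxp3, Ccr7, Lef1 and Cd22 are known from lymphocytes. No list of lymphocyte markers was used here, and the part of lymphocytes was not tested.

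Macrophage markers rose in the same kidneys as the members other than Lpl. The 15 pan-macrophage markers summed to 381 to 484 CPM in Sham, 457 to 1404 in NX and 1375 to 2790 in AVF+NX. In AVF+NX against Sham 15 of 15 were called higher, beside 15.9% of all genes. Ptprc and Laptm5 in this list are also made by other leukocytes, lymphocytes included. Cd68, a lysosomal macrophage glycoprotein, rose from 5.93 ± 0.591 to 58.03 ± 19.7 CPM, log2 fold change 3.29 ± 0.30, adjusted p = 4.74e-05, and the complement gene C1qa rose from 20.02 ± 2.49 to 112 ± 27.8 CPM, log2 fold change 2.48 ± 0.25, adjusted p = 7.36e-05. The summed markers were 4.68-fold higher in AVF+NX than in Sham by means. More macrophages and more RNA per macrophage cannot be told apart in bulk tissue. Per 100 CPM of macrophage markers, Gpnmb was 0.724 ± 0.165 CPM in Sham and 14.4 ± 3.70 in AVF+NX, whereas Apoe was 101.3 ± 15.02 and 89.2 ± 17.9 (SD, n = 4). Trem2 was 0.231 ± 0.0575 and 0.590 ± 0.140 on that scale, Pla2g7 0.480 ± 0.117 and 1.10 ± 0.206, and Lpl 91.5 ± 22.96 and 20.3 ± 6.31. Lyz2 was the largest of the 15 markers in this sum, at 206 CPM in Sham and 1031 CPM in AVF+NX. The log2 fold change of Cd68, 3.29, was near those of Trem2 (3.58) and Pla2g7 (3.40), while that of C1qa was 2.48. Values per macrophage marker therefore depend on the markers chosen.

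Other cell types' markers moved in the same kidneys. Urothelial and squamous markers summed to 0.450 to 3.23 CPM in Sham and 2.52 to 72.8 CPM in AVF+NX (5 of 6 matched), and neutrophil markers to 2.71 to 4.93 and 7.06 to 39.2 CPM (4 of 8 matched). Krt5, and of the adipocyte markers Retn, were at 0 in all Sham kidneys. Beside 9.18% of all genes, 4 of the 5 kidney markers fell, among them the podocyte gene Nphs1 (log2 fold change -0.90 ± 0.15, adjusted p = 0.00135). Their part in the members' values was not tested. In heart the pan-macrophage markers summed to 275 to 293 CPM in Sham and 386 to 481 CPM in AVF+NX, so the heart values of Pla2g7, Trem2 and Lgals3 were lower where that sum was higher. Within that list Lyz2 rose in heart AVF+NX (log2 fold change 1.41 ± 0.19, adjusted p = 0.00174) while C1qa fell (log2 fold change -1.47 ± 0.47, adjusted p = 0.0353). Of the 15 markers 5 rose and 1 fell, beside 15.4% and 18.6% of all genes. C1qa was named after its values were seen.

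Genes of the pathway around the members were taken from lists of lysosome, lipid transport, TREM2 signalling, lipid-associated macrophage, lipoprotein lipase, fatty acid binding, platelet-activating factor and inflammatory genes. Of 110 listed genes 95 had a symbol in the files. In AVF+NX kidney 52 of 93 tested rose over Sham and 1 fell (57.0%, beside 25.1% of all genes), and in heart 18 of 79 rose and 6 fell (30.4%, beside 34.1%). The median log2 fold change of the listed genes was 0.62 in kidney and 0.16 in heart, against -0.01 and 0.01 over all genes. The counts per list below stand beside 15.9% of all genes called higher and 9.18% lower in kidney. In heart these shares were 15.4% and 18.6%. Nothing is read from a list whose count is near them. Levels of listed genes are means ± SD (n = 4, and n = 3 for heart Sham), and log2 fold changes are given ± SE with edgeR's adjusted p over all genes. These lists were drawn up with earlier results of these data known. Mmp12, Angptl4, Gpihbp1 and Slc7a11, which are among the 52, were near 0 or low in Sham kidney. They passed the filter on low counts mainly through libraries of the other groups, so their calls carry that limit.

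**Figure D4:**
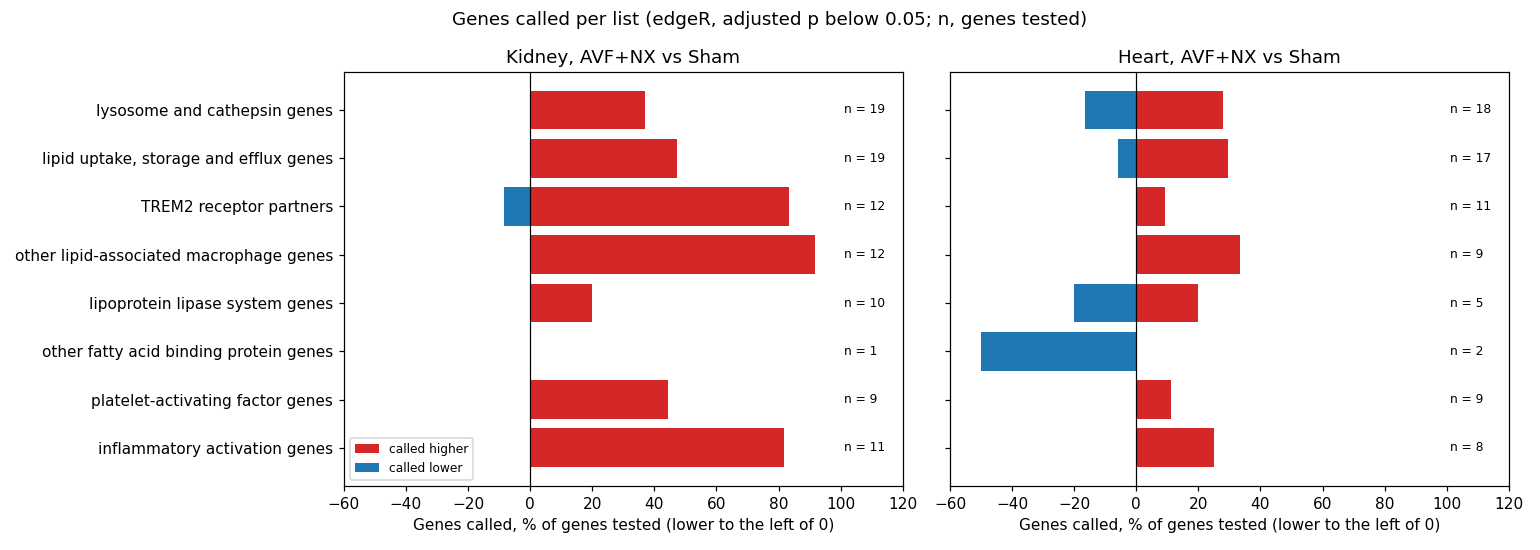
Share of tested genes of each pathway list (horizontal axis, % of genes tested, n printed at the right) that were called higher (right of 0) or lower (left of 0) in AVF+NX against Sham, in kidney and heart. In kidney the TREM2 partner and lipid-associated macrophage lists have the largest shares, and in heart the lysosome list has bars on both sides of 0.

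Receptor and signalling genes around TREM2 rose in AVF+NX kidney, 10 of 12 tested, and 1 fell. The kinase Syk rose from 14.3 ± 2.01 to 57.4 ± 13.5 CPM, log2 fold change 2.01 ± 0.21, adjusted p = 7.85e-05. The transcription factor PU.1, Spi1, rose from 6.76 ± 0.440 to 26.3 ± 6.38 CPM, log2 fold change 1.96 ± 0.25, adjusted p = 0.000211. The phospholipase Plcg2 rose from 20.1 ± 1.39 to 35.3 ± 3.54 CPM, log2 fold change 0.81 ± 0.12, adjusted p = 0.000424. Tyrobp, the TREM2 adaptor, also rose (log2 fold change 2.04 ± 0.29, adjusted p = 0.000466) and was named after its values were seen. The gene that fell was the efferocytosis receptor Mertk (log2 fold change -0.34 ± 0.10, adjusted p = 0.0235), which was named after its values were seen.

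Of the other lipid-associated macrophage genes 11 of 12 tested rose in AVF+NX kidney. The lectin receptor Clec7a rose from 6.57 ± 1.02 to 27.2 ± 6.19 CPM, log2 fold change 2.05 ± 0.16, adjusted p = 2.66e-05. The cystatin Cst7 rose from 2.34 ± 0.795 to 16.5 ± 3.82 CPM, log2 fold change 2.81 ± 0.25, adjusted p = 4.31e-05. Galectin-1, Lgals1, rose from 24.5 ± 7.13 to 73.3 ± 16.5 CPM, log2 fold change 1.59 ± 0.26, adjusted p = 0.00111. The macrophage elastase Mmp12, named after its values were seen, went from 0.218 to 63.9 CPM on average (log2 fold change 8.20 ± 1.65, adjusted p = 0.00475).

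Lysosome and cathepsin genes rose in 7 of 19 tested. Ctsz rose from 14.7 ± 2.90 to 86.5 ± 23.3 CPM, log2 fold change 2.57 ± 0.28, adjusted p = 0.000107. Ctsk, a collagen-degrading cathepsin, rose from 8.23 ± 0.975 to 47.8 ± 23.8 CPM, log2 fold change 2.54 ± 0.35, adjusted p = 0.000445. Ctss rose from 25.7 ± 5.52 to 88.4 ± 16.7 CPM, log2 fold change 1.79 ± 0.29, adjusted p = 0.00121. The list's median log2 fold change was 0.14.

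Lipid uptake, storage and efflux genes rose in 9 of 19 tested. The HDL receptor Scarb1 rose from 13.5 ± 0.714 to 32.3 ± 3.06 CPM, log2 fold change 1.26 ± 0.14, adjusted p = 8.6e-05. The phospholipid transfer protein Pltp rose from 48.4 ± 3.60 to 117 ± 34.9 CPM, log2 fold change 1.28 ± 0.20, adjusted p = 0.000885. The scavenger receptor Msr1 rose from 3.97 ± 0.748 to 11.8 ± 3.56 CPM, log2 fold change 1.57 ± 0.26, adjusted p = 0.00117.

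Around lipoprotein lipase, 2 of 10 tested rose, near the 15.9% of all genes called higher, while Lpl itself overlapped between groups. Angptl4, an inhibitor of LPL, rose from 0.504 ± 0.459 to 8.51 ± 2.15 CPM, log2 fold change 4.10 ± 0.73, adjusted p = 0.00185. Gpihbp1, the capillary anchor of LPL, rose from 0.104 ± 0.155 to 1.29 ± 0.576 CPM, log2 fold change 3.39 ± 1.13, adjusted p = 0.0436, a call lost with the unfiltered genes, the replicate block, the log2 total count as a covariate and most single libraries left out. Platelet-activating factor genes rose in 4 of 9, led by Pla2g15 (log2 fold change 0.61 ± 0.12, adjusted p = 0.0032), Lpcat1 (log2 fold change 0.79 ± 0.16, adjusted p = 0.0042) and the receptor Ptafr (log2 fold change 0.83 ± 0.19, adjusted p = 0.00807). Inflammatory genes rose in 9 of 11. The cystine transporter Slc7a11 rose from 0.111 ± 0.102 to 7.45 ± 3.45 CPM, log2 fold change 5.89 ± 0.78, adjusted p = 0.000286, the transcription factor Irf1 had a log2 fold change 1.14 ± 0.16, adjusted p = 0.000307, and the inflammasome sensor Nlrp3 a log2 fold change 1.37 ± 0.25, adjusted p = 0.00201. Of the other fatty acid binding proteins only Fabp3 was tested in kidney (log2 fold change -0.12 ± 0.17, adjusted p = 0.635).

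The number of these genes that differed between NX and Sham kidneys depended on the method. In NX against Sham 3 of 93 rose, the protease Ctsd (log2 fold change 0.62 ± 0.11, adjusted p = 0.0297), Clec7a (log2 fold change 0.74 ± 0.16, adjusted p = 0.0463) and Slc7a11 (log2 fold change 4.21 ± 0.84, adjusted p = 0.0371), beside 1.31% of all genes. DESeq2 called 18 and a fit with the replicate number as a block 11. The edgeR count ran from 0 to 18 with single libraries left out: it was 18 when NX library 3 was dropped, and 0 when any one of NX libraries 1 and 2 or Sham libraries 2, 3 and 4 was. In AVF+NX against NX 19 of 93 rose (20.4%, beside 6.07%), 7 of them TREM2 partners, led by Syk (log2 fold change 1.24 ± 0.20, adjusted p = 0.00763). A fit of only the AVF+NX and NX groups called 4. Dropping AVF+NX library 1 left 7 calls and library 4 left 9. Dropping NX library 3 left 8, and NX library 1 or 2 left 12.

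In heart the listed genes went both ways in AVF+NX against Sham. Of 18 lysosome genes 5 rose and 3 fell. Cd63, a tetraspanin of lysosomes, fell (log2 fold change -0.79 ± 0.17, adjusted p = 0.00575), as did the cholesterol carrier Npc2 (log2 fold change -0.52 ± 0.14, adjusted p = 0.0148), and Ctsb rose (log2 fold change 0.46 ± 0.11, adjusted p = 0.00924). Of 17 lipid uptake and efflux genes 5 rose and 1 fell. The liver X receptor Nr1h2 fell (log2 fold change -0.82 ± 0.13, adjusted p = 0.00217), and the lipid droplet gene Plin2 (log2 fold change 0.42 ± 0.10, adjusted p = 0.00813) and Msr1 (log2 fold change 0.91 ± 0.25, adjusted p = 0.0142) rose. The cardiomyocyte fatty acid carrier Fabp3 fell (from 2648 ± 224 to 1814 ± 325 CPM, log2 fold change -0.55 ± 0.13, adjusted p = 0.00683).

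Of 9 tested lipid-associated macrophage genes 3 rose in heart, beside 15.4% of all genes called higher. The 3 were the chemokine Cxcl16 (log2 fold change 0.93 ± 0.16, adjusted p = 0.00235), the annexin Anxa2 (log2 fold change 0.81 ± 0.17, adjusted p = 0.005) and Clec7a (log2 fold change 1.18 ± 0.34, adjusted p = 0.0189). Of the TREM2 partners 1 of 11 rose, the sheddase Adam17 (log2 fold change 0.64 ± 0.17, adjusted p = 0.0119). The convertase Furin fell (log2 fold change -0.54 ± 0.16, adjusted p = 0.021) and Sel1l rose (log2 fold change 0.33 ± 0.11, adjusted p = 0.0326). Pla2g4a rose (log2 fold change 1.16 ± 0.31, adjusted p = 0.0154), as did Ccl2 (log2 fold change 1.23 ± 0.35, adjusted p = 0.0182) and Nlrp3 (log2 fold change 1.08 ± 0.33, adjusted p = 0.0234). The calls of Msr1, Clec7a, Adam17, Furin, Sel1l, Pla2g4a, Ccl2 and Nlrp3 in heart were each lost with at least 1 single library left out. All 24 heart calls were lost with the log2 total count as a covariate, and 11 were made without Sham library 3 and 13 without Sham library 1. In NX against Sham and in AVF+NX against NX edgeR called 0 of 79, with 11 and 16 at an unadjusted p under 0.05, and DESeq2 called 3 and 6.

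The difference between the organs was tested for the listed genes by subtracting each gene's kidney effect from its heart effect in one fit of all 23 libraries. In AVF+NX against Sham 31 of 95 passed, 26 of them with the lower value in heart (32.6%, beside 27.9% of all 15222 genes). They included Ctsz (difference -2.48 ± 0.35, adjusted p = 0.000125), Spi1 (difference -1.98 ± 0.32, adjusted p = 0.000345), Pltp (difference -1.33 ± 0.25, adjusted p = 0.000958) and Lgals1 (difference -1.51 ± 0.28, adjusted p = 0.000783). Npc2 and Ctsd were called in opposite directions in the 2 organs. Npc2 fell in heart and rose in kidney (log2 fold change 0.66 ± 0.12, adjusted p = 0.00196), with a difference of -1.09 ± 0.18, adjusted p = 0.000424. Ctsd fell in heart (log2 fold change -0.37 ± 0.11, adjusted p = 0.0181) and rose in kidney (log2 fold change 0.54 ± 0.11, adjusted p = 0.00415), with a difference of -0.82 ± 0.14, adjusted p = 0.000582. Without heart Sham library 2 the heart call of Npc2 was lost. With the log2 total count as a covariate the heart calls of both Npc2 and Ctsd were lost. That covariate was not run for the organ difference, so the part of heart depth in these differences was not tested.

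For the members the same difference is a description. In AVF+NX against Sham it was -4.04 ± 0.35 for Pla2g7, -4.17 ± 0.54 for Trem2, -3.75 ± 0.54 for Lgals3 and -6.27 ± 0.83 for Gpnmb (log2, SE). Lpl was the exception, at 0.31 ± 0.26. In NX against Sham 1 of 95 listed genes passed, Ctsd, beside 0.158% of all genes, and in AVF+NX against NX 2 passed, Ctsz and Pltp, beside 1.12%. Each of these 3 calls was lost with one or more single libraries left out.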

How the data were processed

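The authors deposited whole-number read counts per gene and library, with each gene's coordinates, strand and length, per the file headers, and 6 tables of their own comparisons. The submitters' processing notes name Trimmomatic 0.36, STAR 2.5.2b, featureCounts and Subread 1.5.2 without a role. Build, annotation and strand setting were not given in the sources used here. Those tables of the authors hold log2 fold changes, p-values with adjusted p-values by an unnamed tool, and normalized signal values, which are the counts divided by 1 factor per library and table.

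From the counts, genes were filtered (filterByExpr) and tested with edgeR 4.0.16 in R 4.3.3 (quasi-likelihood, robust, TMM scaling), with the 3 groups of an organ in 1 fit and all 23 libraries in 1 fit for the organ difference. This left 12794 genes in heart, 14322 in kidney and 15222 in both. A called gene had a Benjamini-Hochberg adjusted p under 0.05. The common BCV of the hearts was 0.156 and that of the kidneys 0.176. Alternatives were DESeq2 1.42.0, its size factors, no filter, a replicate block, fits of only the compared groups, single libraries left out and, added later, the log2 total count as a covariate. The covariate and the fits of only the compared groups were run within each organ, not for the organ difference. The scripts were tested on simulated data. Whether libraries came from separate rats is known only from the labels' replicate numbers, so p-values measure the spread between these samples. No pair of libraries agreed within sampling noise (lowest chi-square per degree of freedom 6.49 over 33 pairs).

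The members and the gene lists were chosen with earlier results of these data known. Genes were named by rule: all 10 members, up to 3 called genes with the smallest p from each list, or up to 2 where none was called, and the 5 genes most like the members per organ. Tyrobp, Mertk, Mmp12, Mycbp2 and single cell type markers fall outside this rule and were named with their values known. Sequences are from RefSeq, build GRCr8.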

Additional observations from a re-analysis of the deposited data

Results flagged for a closer look

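A library of Fabp4 stood apart from its group. Kidney NX library 1 had 50.4 CPM, and the next highest NX library had 12.6 CPM. Adipoq and Plin1 were also at their highest in it.

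Of 49 groups of 4 libraries looked at for single libraries far from the rest, 4 stood out, and chance flags about 1 in 20 groups. The other 3 were groups in which a single library had counts and the rest had 0. These were Apoc1 in heart NX library 3 (0.220 CPM), Acod1 in heart NX library 1 (0.104 CPM) and Acod1 in kidney Sham library 2 (0.247 CPM).

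Every AVF+NX heart was below every Sham heart and every AVF+NX kidney above every Sham kidney for 3 members, and the difference itself was not tested for them because measured values chose them. The log2 fold change in heart minus that in kidney was -4.04 for Pla2g7, -4.17 for Trem2 and -3.75 for Lgals3. For AVF+NX against NX the same held for Pla2g7, at -2.17. The share of all genes with such opposite, non-overlapping groups was not counted, so nothing is read from the number of members.

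Of the listed pathway genes, the difference between organs passed edgeR's test for 1 gene in NX against Sham, 31 in AVF+NX against Sham and 2 in AVF+NX against NX.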

How the results depend on the processing

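No called value of a member, or of a pathway gene named by rule, changed sign in an alternative run that returned it. The other called genes were not followed. In heart AVF+NX against Sham, members called were 1, but 2 with the replicate block, 0 with the log2 total count as a covariate and 3 in a fit of only those groups. With that covariate, chosen after seeing the data, the 24 pathway genes called became 0. Pathway genes called in heart AVF+NX against NX were 0, 1 with the replicate block and 6 with DESeq2, and in heart NX against Sham 3 with DESeq2. In kidney NX against Sham, members called fell from 4 to 2 without a filter on low counts and 2 in a fit of only those groups, and pathway genes went from 3 to 11 with the replicate block and 18 with DESeq2. In kidney AVF+NX against NX a fit of only those groups called 4 pathway genes and 4 members. For the organ difference, NX against Sham gave 0 without the filter, 3 with the replicate block and 3 with DESeq2, and AVF+NX against NX 1 without the filter and 7 with DESeq2. Leaving out single libraries gave pathway counts of 11 to 22 and member counts of 0 to 1 in heart AVF+NX against Sham, 0 to 5 pathway genes in heart AVF+NX against NX and 0 to 2 in heart NX against Sham. In kidney it gave 47 to 55 pathway genes and 9 members in AVF+NX against Sham, 7 to 26 and 6 to 8 in AVF+NX against NX, and 0 to 18 and 0 to 4 in NX against Sham. The organ differences ran from 24 to 35, 0 to 5 and 0 to 2 genes. The cause of these moves was not tested. Libraries were not treated as paired by replicate number, since not every same-numbered pair correlated. In kidney these pairs ran from -0.07 to 0.38 (median 0.17, against -0.01 for other pairs), with those numbered 1 and 3 all at 0.14 or above. In heart they ran from -0.12 to 0.12 (median -0.01, against 0.01). In kidney 6 of 12 and in heart 2 of 11 libraries correlated best with their own number. Acod1 and Apoc1 had at most 2 and 5 counts in a heart library, the deepest included, so no heart difference could be tested for them.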
